A study of Mus musculus with 8 samples.

Results

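Coagulation and plasminogen system genes were examined in macrophages of LPS-treated wild-type (WT) and EP2 knockout (EP2KO) mice. The 10 genes were listed by name, with earlier results of these data known: the clotting genes F3, F5, F7, F10 and F13a1, the anticoagulant receptor genes Procr and Thbd, and the plasminogen genes Plau, Plaur and Serpinb2. They were read by 15 of the 39429 gene probes on the array, and all 10 were among the 20736 features tested. All 15 probes were well above background on all 8 arrays, so each level given for these 10 genes is a measured one.

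Each of the 8 samples was total RNA of macrophages hybridised to a 1-colour Agilent whole-genome array, with 4 arrays of WT mice (WT 1 to WT 4) and 4 of mice lacking EP2 (EP2KO 1 to EP2KO 4). EP2 is a receptor for prostaglandin E2 that raises cAMP and is encoded by Ptger2. All mice had been given LPS, a bacterial endotoxin, and no untreated group was analysed here, so no value below is a response to LPS. Strain, age, LPS dose and time, the tissue the cells came from, and whether a replicate was 1 mouse or a pool were not stated by the sources used here. The p-values therefore describe the spread among these 8 samples alone, which may be technical.

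Blood clotting starts when tissue factor binds factor VII, and this pair activates factor X, which with its cofactor factor V turns prothrombin into thrombin. Thrombin makes fibrin, factor XIII crosslinks it, and plasmin, made from plasminogen by urokinase, dissolves it again. Macrophages are known to make several of these proteins outside the liver, and peritoneal macrophages are known to make factors V, VII and X and, after endotoxin, the urokinase inhibitor PAI-2.

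The arrays lay on 2 slides. Slide 1 held replicates 1 and 2 of both genotypes and slide 2 held replicates 3 and 4, so each slide had 2 arrays per genotype. The slides were scanned on different days, so slide and scan day cannot be told apart, and the slide numbers do not give the order of scanning. Within a slide the WT arrays always took positions 1 and 2 and the EP2KO arrays 3 and 4, and so position cannot be told apart from genotype. The slide parted the arrays more than the genotype: arrays of 1 slide but different genotype correlated across features, which are not independent replicates, at r = 0.969 to 0.987, and arrays of different slides at 0.927 to 0.963. Ptger2, the targeted gene, had a signal of 0.90 to 1.12 on WT and 0.22 to 0.36 on EP2KO arrays, in multiples of each array's 75th percentile, and its log2 difference was -1.76 ± 0.17 (SE, n = 4 per genotype; limma adjusted p = 0.0615, or 0.0328 once the slide entered as a block and 0.217 with the replicate number as a block). It checks the labels only if its probe reads the deleted stretch, which the sources used here leave unstated. The labels give all mice as male, yet both Xist probes were well above background on all 8 arrays, and of 5 probes of Y-linked genes 1 was well above background on 1 array.

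Signals are given below as multiples of each array's 75th percentile, and differences as log2 units. Among the 10 genes, 3 had EP2KO and WT arrays that did not overlap on either slide, in the same direction on both: Serpinb2 and F7 were higher and F13a1 was lower in EP2KO. The same criterion was met by 7.02% of all features. The promoters of these 3 genes are shown because their genotype difference ran alike on both slides. The sequences are those of RefSeq on build GRCm38.p6, from 250 bases before to 50 bases after a listed start, on the strand of the gene, and capitals mark a match to the AP-1 motif TGANTCA, the binding motif of Fos and Jun proteins.
Serpinb2, chr1:107511173-107511472, plus strand, the first of its 2 listed starts: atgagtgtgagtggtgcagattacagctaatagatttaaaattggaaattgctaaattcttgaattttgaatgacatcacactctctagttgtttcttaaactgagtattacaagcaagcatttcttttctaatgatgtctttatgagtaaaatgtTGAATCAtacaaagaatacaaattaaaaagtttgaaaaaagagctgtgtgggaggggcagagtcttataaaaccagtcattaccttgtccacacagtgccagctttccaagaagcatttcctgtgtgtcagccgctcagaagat
F7, chr8:13025784-13026083, plus strand: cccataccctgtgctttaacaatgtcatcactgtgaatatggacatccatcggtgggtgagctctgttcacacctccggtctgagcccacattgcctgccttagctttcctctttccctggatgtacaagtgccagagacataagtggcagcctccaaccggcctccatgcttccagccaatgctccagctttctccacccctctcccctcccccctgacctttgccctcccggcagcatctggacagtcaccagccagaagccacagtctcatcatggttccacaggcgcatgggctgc
F13a1, chr13:37050195-37050494, minus strand, the first of its 2 listed starts: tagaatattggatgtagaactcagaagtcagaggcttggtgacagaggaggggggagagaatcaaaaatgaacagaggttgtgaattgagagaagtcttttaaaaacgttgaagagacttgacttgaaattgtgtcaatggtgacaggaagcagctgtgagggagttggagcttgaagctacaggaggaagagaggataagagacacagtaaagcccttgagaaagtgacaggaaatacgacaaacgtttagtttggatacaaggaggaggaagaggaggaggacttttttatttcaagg
Promoters of 8 of the 10 genes were listed, in 10 windows. The AP-1 motif TGANTCA was found on either strand in 5 of these windows, those of Serpinb2 (both, the same match), Procr, F3 and Plaur, against 7.81% of the 32851 windows of all genes. The Serpinb2 match began 94 bases before the first listed start. The cAMP response element TGACGTCA was found in 0 of the 10 windows and in 1.79% of all windows. A loose kappa B pattern, a run of G and a run of C with 5 free bases between them, was found in 6 of 10 windows and in 50.8% of all windows, and can overlap itself on the other strand. F7 and F13a1 had none of the 3 motifs in the windows shown. The other F13a1 window, which is not shown, had a kappa B match. A match describes letters in the window and not a bound site.

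Tissue factor, the membrane protein encoded by F3 that starts the clotting cascade, had opposite genotype differences on the slides. Its signal was 0.43, 0.19, 1.64 and 0.90 on WT 1 to 4, and it was 0.71, 0.86, 0.73 and 0.34 on EP2KO 1 to 4. On slide 1 both EP2KO arrays lay above both WT arrays, and on slide 2 both lay below. The log2 difference was 1.45 on slide 1 and -1.29 on slide 2, and over both slides 0.08 ± 0.65 (SE, n = 4 per genotype; limma adjusted p = 1.00). The test of the difference between the slides, the genotype by slide interaction, gave -2.73 ± 0.75 (SE; adjusted p = 0.144). The other F3 probe, which was dimmer (0.015 to 0.13 over the 8 arrays), differed by 1.47 on slide 1 and -1.12 on slide 2.

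F7, which encodes factor VII, the protease that tissue factor activates, had the most even genotype difference of the clotting genes. Its signal was 2.97, 4.36, 11.6 and 15.7 on WT 1 to 4, and it was 5.22, 5.13, 23.1 and 16.5 on EP2KO 1 to 4. Both EP2KO arrays lay above both WT arrays on either slide, while the genotypes overlapped over all 8 arrays because every slide 2 array was above every slide 1 array. The difference was 0.53 on slide 1 and 0.53 on slide 2, a 1.44-fold higher signal in EP2KO on each. Its SE was 0.71 without a block and 0.18 with the slide as a block (limma adjusted p = 1.00 and 0.544), so the difference did not pass in either fit. Between the slides F7 differed by 1.91 ± 0.18 log2 units, a 3.76-fold higher signal on slide 2 (adjusted p = 0.000342). Its other probe gave 1.93 ± 0.19 between the slides and 0.54 between the genotypes.

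F10, which encodes factor X, lies next to F7 on chromosome 8 with 0 genes listed between them, and its 2 probes ran in opposite directions between the slides. The brighter probe, for transcript NM_007972, was at 45.4, 65.3, 16.0 and 17.8 on WT 1 to 4, and at 45.9, 43.3, 28.0 and 30.5 on EP2KO 1 to 4. The other, for transcript NM_001242368, was at 7.97, 9.66, 12.1 and 11.9 on WT 1 to 4, and at 5.03, 6.47, 19.0 and 14.0 on EP2KO 1 to 4. Every slide 1 array was above every slide 2 array by the first probe, and below by the second. The slide difference was -1.15 ± 0.24 for the first (limma adjusted p = 0.00852) and 0.98 ± 0.24 for the second (adjusted p = 0.0159 in a fit over all kept probes). Within arrays, the second probe's log2 signal minus that of the first was 2.13 higher on slide 2, a description of the same values. A difference between transcripts of 1 gene and a difference in what the probes bind cannot be told apart here.

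By both F10 probes the genotype difference was lower on slide 1 and higher on slide 2. It was -0.29 and 0.79 for NM_007972, with overlapping genotypes on slide 1 and both EP2KO arrays above both WT arrays on slide 2. It was -0.62 and 0.45 for NM_001242368. Over both slides NM_007972 differed by 0.25 ± 0.48 (limma adjusted p = 1.00). Its interaction was 1.08 ± 0.27 (adjusted p = 0.132). This interaction ran from 0.82 to 1.34 as each array was left out, the highest without WT 1, a fit with 1 WT array left on slide 1.

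F5, the gene of factor V, the cofactor of factor X, had its high values on 2 arrays. Its signal was 3.20, 3.32, 1.14 and 1.73 on WT 1 to 4, and it was 7.99, 8.02, 0.95 and 1.12 on EP2KO 1 to 4. The EP2KO arrays of slide 1 stood apart from all others, 2.46-fold above the WT arrays of that slide, whereas on slide 2 both EP2KO arrays lay below both WT arrays (log2 difference -0.45). Over both slides the difference was 0.43 ± 0.82 without a block and ± 0.36 with the slide as a block (limma adjusted p = 1.00 and 0.982). The interaction was -1.74 ± 0.30 (adjusted p = 0.107) and did not pass. F5 was 4.25-fold lower on slide 2 than on slide 1, with -2.09 ± 0.36 log2 units (adjusted p = 0.00361). The dimmer F5 probe gave 1.41 and -0.36 on the slides and -2.36 between them.

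F13a1, which encodes the A subunit of factor XIII, the fibrin-crosslinking enzyme of monocytes, macrophages and platelets, was lower in EP2KO on both slides. Its signal was 38.9, 44.2, 20.7 and 26.3 on WT 1 to 4, and it was 25.8, 26.1, 12.5 and 20.2 on EP2KO 1 to 4. The genotypes did not overlap on either slide, and overlapped across slides. The WT signal was 1.60-fold that of EP2KO on slide 1 and 1.47-fold on slide 2. The log2 difference was -0.61 ± 0.33 without a block and ± 0.17 with the slide as a block (limma adjusted p = 1.00 and 0.402), which did not pass. The dimmer probe gave -0.63, with -0.74 on slide 1 and -0.53 on slide 2. F13a1 was 1.70-fold lower on slide 2 (-0.77 ± 0.17, adjusted p = 0.0109), which by the dimmer probe was -0.52 and did not pass (adjusted p = 0.0520).

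**Figure D1:**
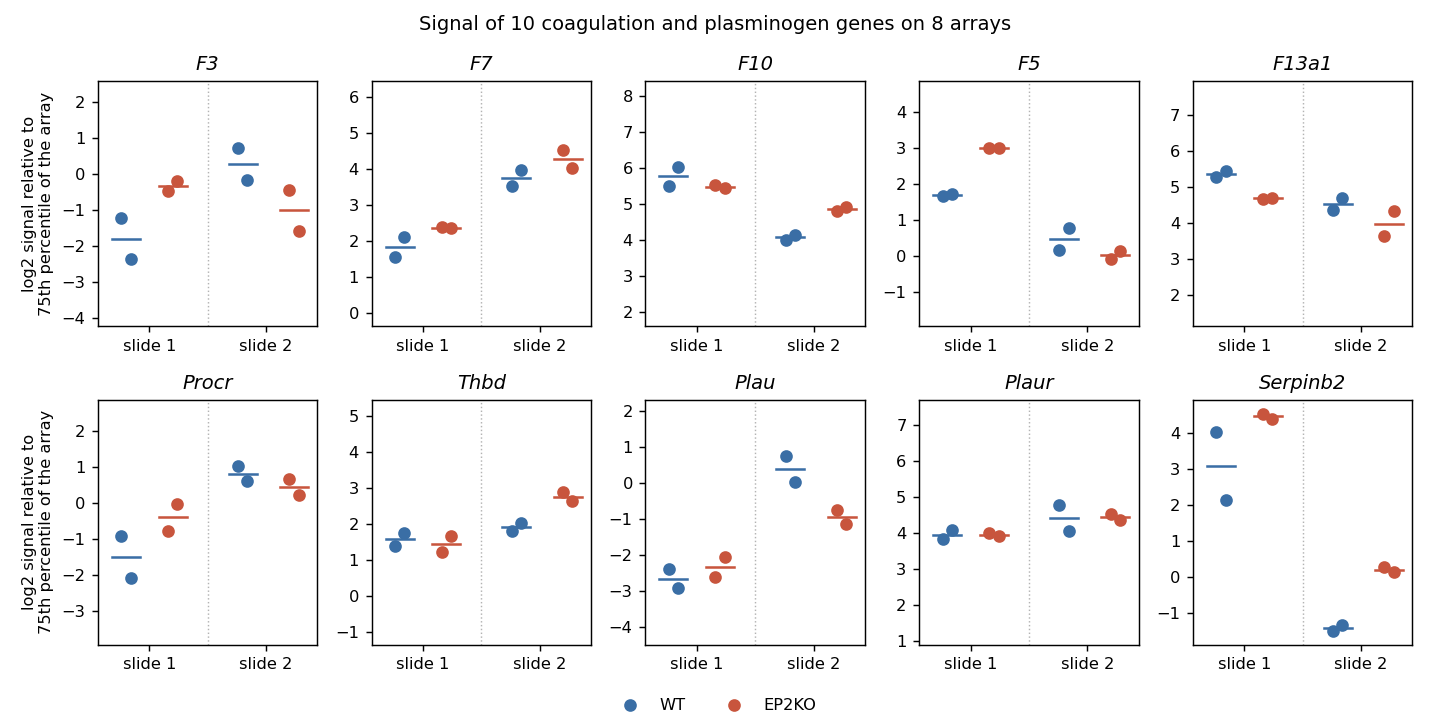
Log2 signal of the 10 genes relative to each array's 75th percentile (vertical axis, every panel spans the same range) on slide 1 and slide 2. Points are single arrays, 2 per genotype and slide, and lines their means, with Serpinb2 highest on the EP2KO arrays of slide 1 (20.9 and 23.3 on the linear scale) and lowest on the WT arrays of slide 2 (0.36 and 0.39).

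Procr encodes the endothelial protein C receptor, which presents protein C for activation and thereby limits clotting. Its signal was 0.54, 0.24, 2.04 and 1.54 on WT 1 to 4, and it was 0.59, 0.99, 1.60 and 1.17 on EP2KO 1 to 4. Every slide 2 array was above every slide 1 array, while the genotypes were apart on slide 1 only, where EP2KO was higher. The genotype difference was 1.09 on slide 1 and -0.37 on slide 2, and 0.36 ± 0.69 in all (limma adjusted p = 1.00). Between the slides it was 1.58 ± 0.40, a 2.99-fold higher signal on slide 2 (adjusted p = 0.0178), a call lost without WT 4 (1.52, adjusted p = 0.0522).

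Thbd encodes thrombomodulin, which binds thrombin and turns it towards protein C activation. Its signal was 2.64, 3.39, 3.50 and 4.11 on WT 1 to 4, and it was 2.35, 3.18, 7.37 and 6.20 on EP2KO 1 to 4. The genotypes overlapped on slide 1 and were apart on slide 2, where EP2KO was 1.78-fold higher. The log2 difference was 0.35 ± 0.38 (limma adjusted p = 1.00 without a block and 0.911 in the slide-blocked fit). The interaction, 0.96 ± 0.31, did not pass (adjusted p = 0.166). Thbd was 1.77-fold higher on slide 2 (0.83 ± 0.23, adjusted p = 0.0260). Leaving out 1 array kept this call in 2 of 8 cases, those without WT 2 and WT 3, with adjusted p values from 0.0113 to 0.0712 over the 8 fits, and it was also lost with median scaling (0.79, adjusted p = 0.0645) and with normexp background correction (0.76, adjusted p = 0.0898).

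Plau encodes urokinase, the protease that turns plasminogen into plasmin. Its signal was 0.19, 0.13, 1.71 and 1.03 on WT 1 to 4, and it was 0.17, 0.24, 0.60 and 0.46 on EP2KO 1 to 4. All slide 2 arrays were above all slide 1 arrays, and on slide 2 both EP2KO arrays lay below both WT arrays. Plau was 4.67-fold higher on slide 2 (2.22 ± 0.38, limma adjusted p = 0.00370). The genotype difference was 0.32 on slide 1 and -1.34 on slide 2, the latter a 2.52-fold higher WT signal, and -0.51 ± 0.88 in all (adjusted p = 1.00). The interaction was -1.66 ± 0.47 (adjusted p = 0.149). Without WT 3 the genotype difference turned to 0.12.

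Plaur, the gene of the cell surface receptor that holds urokinase, was the most even of the 10. Its signal was 14.3, 16.8, 27.4 and 16.6 on WT 1 to 4, and it was 15.9, 15.2, 23.2 and 20.5 on EP2KO 1 to 4. The genotypes overlapped on both slides. The log2 difference was 0.02 ± 0.24 without a block and ± 0.17 with the slide as a block (limma adjusted p = 1.00 in both). Between the slides it was 0.47 ± 0.17 (adjusted p = 0.0554), which missed the threshold, and passed without WT 4 (0.62, adjusted p = 0.0144), with quantile scaling and with an intensity trend. Its range over the 8 arrays, 0.94, was close to the median of 0.97 over all features, against a median of 3.02 over the 10 genes.

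Serpinb2 encodes PAI-2, an inhibitor of urokinase that stays largely inside the cell, and had the widest range of the 10 genes, 6.02 log2 units. Its signal was 16.3, 4.41, 0.36 and 0.39 on WT 1 to 4, and it was 23.3, 20.9, 1.21 and 1.1 on EP2KO 1 to 4. All slide 1 arrays were above all slide 2 arrays, and on either slide both EP2KO arrays were above both WT arrays. Serpinb2 was 20.8-fold lower on slide 2 than on slide 1 (-4.38 ± 0.37 log2 units, limma adjusted p = 0.000240).

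The genotype difference of Serpinb2 over both slides, 1.50, was the widest of the 10 genes with all 8 arrays, though not on slide 1 alone (F3, 1.45) or without WT 3, WT 4, EP2KO 1 or EP2KO 2. It was 1.38 ± 0.69 on slide 1, a 2.60-fold higher signal in EP2KO, and 1.62 ± 0.15 on slide 2, a 3.07-fold higher signal (SE, n = 2 arrays per genotype). In the fits of single slides it passed on slide 2 (limma adjusted p = 0.0436) and not on slide 1 (adjusted p = 0.492). The fit of slide 2 called 1.05% of all features, 217 in number, of which 11 were higher in EP2KO as Serpinb2 was (0.053% of all features) and 206 lower, and that of slide 1 called 0%. On slide 1, WT 1 and WT 2 differed from each other more than WT 1 did from the EP2KO arrays. The interaction was 0.24 ± 0.78 (adjusted p = 0.878). Over both slides the difference was 1.50 ± 1.61 without a block and ± 0.37 with the slide as a block (adjusted p = 1.00 and 0.312). It ran from 0.73 to 2.56 as each array was left out and did not pass in any of these 8 fits. Serpinb2 was read by 1 probe.

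Across the 10 genes no genotype difference passed in the comparison of EP2KO with WT: 0 were called, beside 0.00965% of all 20736 features (2 features), and 0 with the slide as a block, beside 0.0193% (4 features). The genotypes did not overlap over all 8 arrays for 0 of the 10 genes, as for 1.39% of all features. At an unadjusted p under 0.05 limma had 0 of the 10 genes without a block, beside 1.98% of all features. With the slide as a block it had 3, namely Serpinb2, F13a1 and F7, beside 7.34%, and with the replicate number as a block also 3, beside 5.45%. Their median log2 difference was 0.30, against -0.03 over all features, with 8 genes above 0, where 43.4% of all features were. The sign was the same on both slides for 4 of the 10 (Serpinb2, F7, F13a1 and Plaur), where it was for 36.3% of all features. The genotype by slide interaction was called for 0 of the 10 genes, beside 0.0145% of all features, and was under an unadjusted p of 0.05 for 5 (F3, F5, F10, Thbd and Plau), beside 21.1%.

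**Figure D2:**
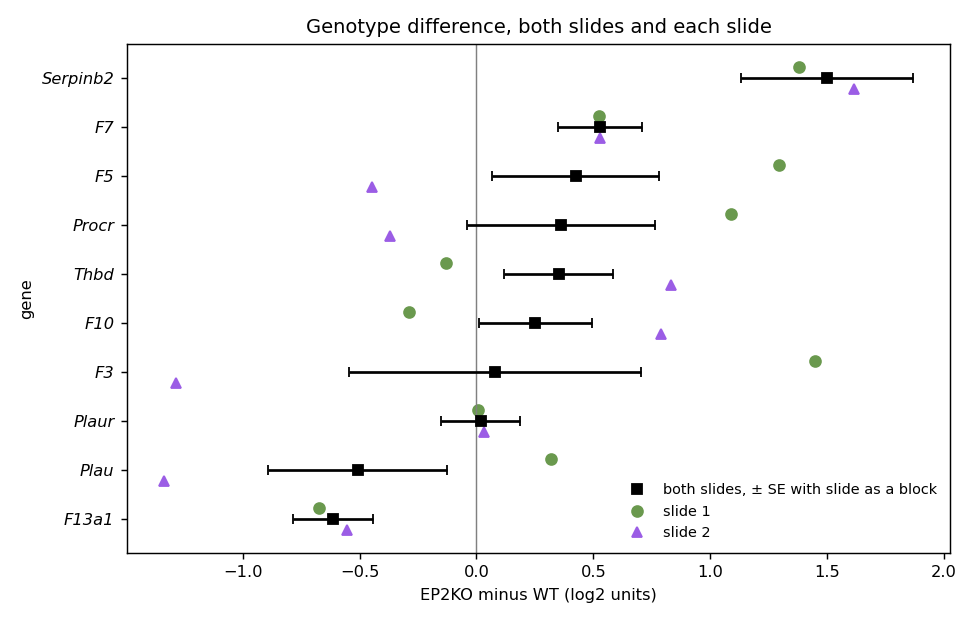
Log2 difference EP2KO minus WT (horizontal axis) of the 10 genes, as the value over both slides with its SE in the fit with the slide as a block (squares), on slide 1 (circles) and on slide 2 (triangles). Serpinb2 (1.38 and 1.62), F7 (0.53 and 0.53) and F13a1 (-0.68 and -0.55) lie on the same side of 0 on both slides, whereas F3 runs from 1.45 to -1.29.

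Between the slides 8 of the 10 genes passed (limma adjusted p from 0.000240 for Serpinb2 to 0.0260 for Thbd), 4 higher on slide 2 (F7, Procr, Thbd and Plau) and 4 lower (F5, F10 by its brighter probe, F13a1 and Serpinb2). The background is high, as 43.2% of all features were called between the slides, 25.1% higher and 18.2% lower on slide 2. For 7 of the 10 genes, all but F3, F13a1 and Plaur, the arrays of the slides did not overlap, as for 43.1% of all features. The median size of the slide difference was 1.36 log2 units over the 10 genes and 0.42 over all features. Of the genes of plasminogen activation, the protease gene Plau and the inhibitor gene Serpinb2 lay on opposite sides, 4.67-fold higher and 20.8-fold lower on slide 2.

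**Figure D3:**
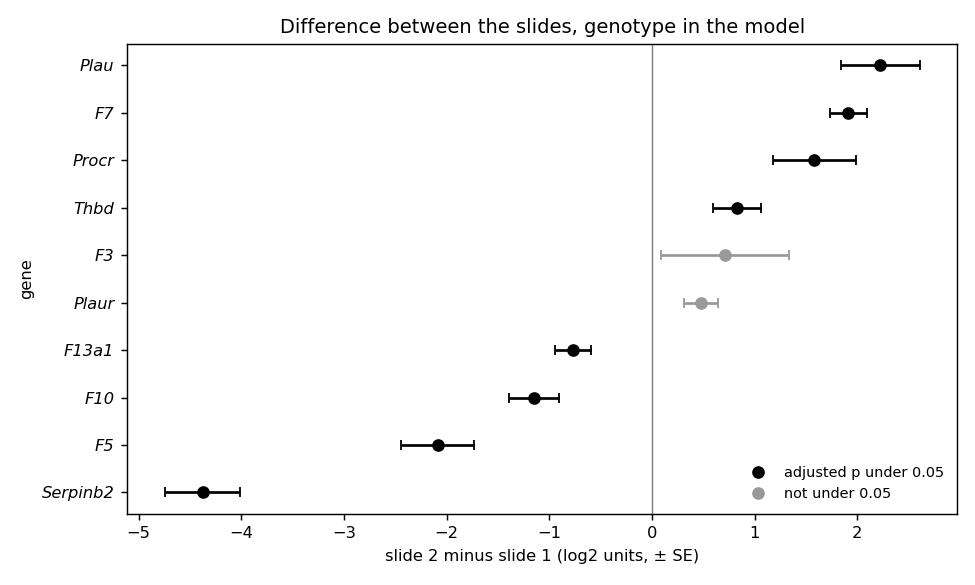
Log2 difference slide 2 minus slide 1 (horizontal axis, ± SE of the limma fit with genotype in the model, 4 arrays per slide) of the 10 genes, each by its brightest probe. Black points passed at an adjusted p of 0.05 and grey points did not. The values run from -4.38 (Serpinb2) to 2.22 (Plau).

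**Figure D4:**
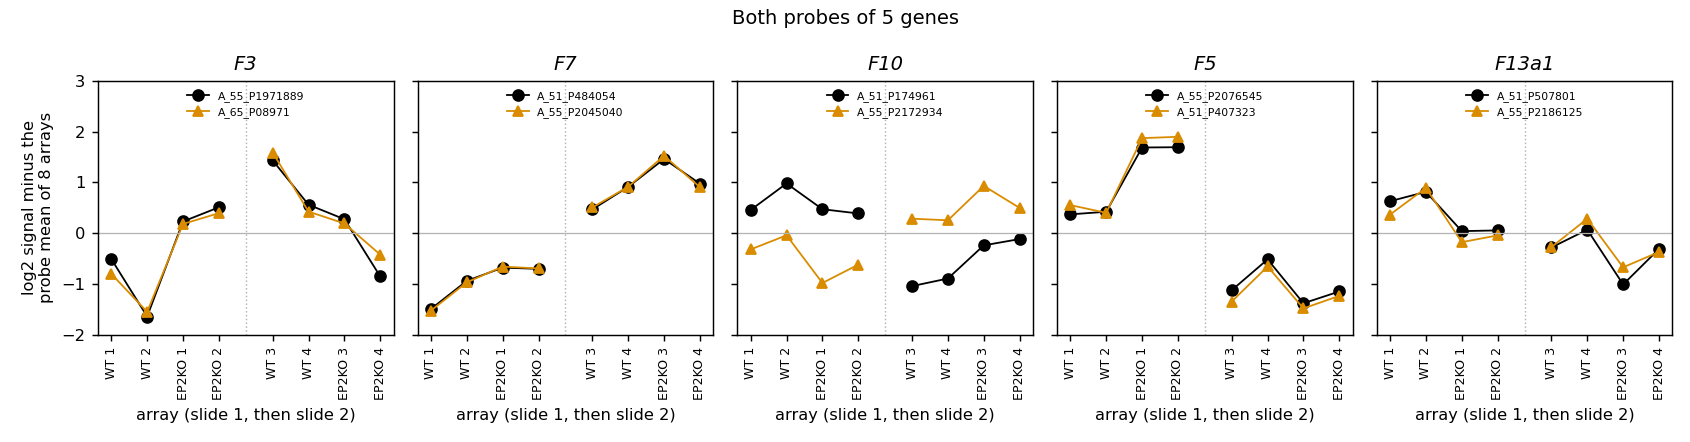
Log2 signal of both probes of 5 genes (vertical axis, minus each probe's own mean of 8 arrays) on the arrays of slide 1 and then slide 2. Circles are the brighter probe and triangles the other. The probes of F3, F7, F5 and F13a1 follow each other from array to array, while those of F10 lie on opposite sides of 0 on every array.

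Markers of other cell types differed between the slides as well. In the T and NK cell, mast cell and eosinophil, endothelial and platelet lists 1 tested gene each was not well above background on every array, so these sums include signals near background. Markers were lower on slide 2 for 8 of 9 tested T and NK cell genes, 7 of 8 mast cell and eosinophil genes, 6 of 8 B cell genes and 7 of 10 genes of large peritoneal macrophages, where 1 other was higher. The summed signal was 14.0 to 28.9 on slide 1 and 3.83 to 3.91 on slide 2 for T and NK cell genes, and 58.1 to 95.3 and 5.58 to 15.8 for B cell genes. It was 14.6 to 35.7 and 1.92 to 13.7 for mast cell and eosinophil genes. For genes of large peritoneal macrophages it was 158 to 239 and 121 to 163, so these sums overlapped between the slides. F5, F10 by its brighter probe, F13a1 and Serpinb2 were called lower on slide 2, and F7, Procr, Thbd and Plau higher. Of 7 tested monocyte and 8 tested neutrophil genes, 4 were lower and 1 higher on slide 2 in each list. Their sums were 137 to 209 and 65.5 to 127 on slide 1, and 73.9 to 127 and 53.3 to 58.4 on slide 2. Of 9 endothelial genes, whose cell type is known for Procr and Thbd, 6 were tested. Tek and Tie1 were not well above background on any array. Among the 6 tested, 2 were higher and 1 lower on slide 2. The endothelial sum was 2.30 to 2.90 on slide 1 and 3.36 to 3.55 on slide 2. Of 6 tested platelet genes, whose cell type holds factor XIII, 1 was higher and 1 lower on slide 2. The platelet sums were 46.2 to 72.6 on slide 1 and 47.6 to 70.4 on slide 2. Of the 12 fibroblast and mesothelial genes 0 passed between the slides. Of the 9 tested macrophage genes 1 was higher and 3 were lower on slide 2. The part of these cells in the slide differences was not tested, and fewer cells of a type and less RNA per cell cannot be told apart.

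Genotype and marker levels also moved together on single slides. The summed signal of large peritoneal macrophage genes was higher on both EP2KO arrays than on both WT arrays of either slide, at 224 and 239 against 158 and 180 on slide 1 and at 143 and 163 against 125 and 121 on slide 2, the same order as Serpinb2 and F7. Mast cell and eosinophil genes had this order too, with sums of 35.3 and 35.7 against 26.4 and 14.6, and of 8.73 and 13.7 against 1.92 and 4.60. Monocyte genes, a list without F13a1, had sums of 73.9 to 209 in WT and 91.1 to 165 in EP2KO. Fibroblast and mesothelial genes, whose cells are known to express F3, Procr and Plau, had a sum of 18.9 on WT 2, the lowest of slide 1, where these 3 genes also had their lowest value. On slide 2 the sum was 116 and 133 on WT 3 and WT 4 against 25.1 and 4.03 on EP2KO 3 and EP2KO 4, and all 3 genes had their lowest value of that slide on EP2KO 4. On slide 1 the sum (89.1) and all 3 genes were highest on EP2KO 2. On slide 2 the sum was highest on WT 4 and all 3 genes on WT 3. EP2KO 4 had the lowest sum of all arrays. On it Plau (0.46) and Procr (1.17) were above every slide 1 array, and F3 (0.34) was below all of them but WT 2 (0.19). All 9 macrophage markers with a probe were well above background on all 8 arrays, with sums of 209 to 357 in WT and 269 to 329 in EP2KO. The macrophage sum was lower in EP2KO on slide 1 (269 and 284 against 303 and 357). It was higher in EP2KO on slide 2 (284 and 329 against 252 and 209). No marker of any list passed between the genotypes in either fit, and the part of these cells in the differences of the 10 genes was not tested.

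**Figure D5:**
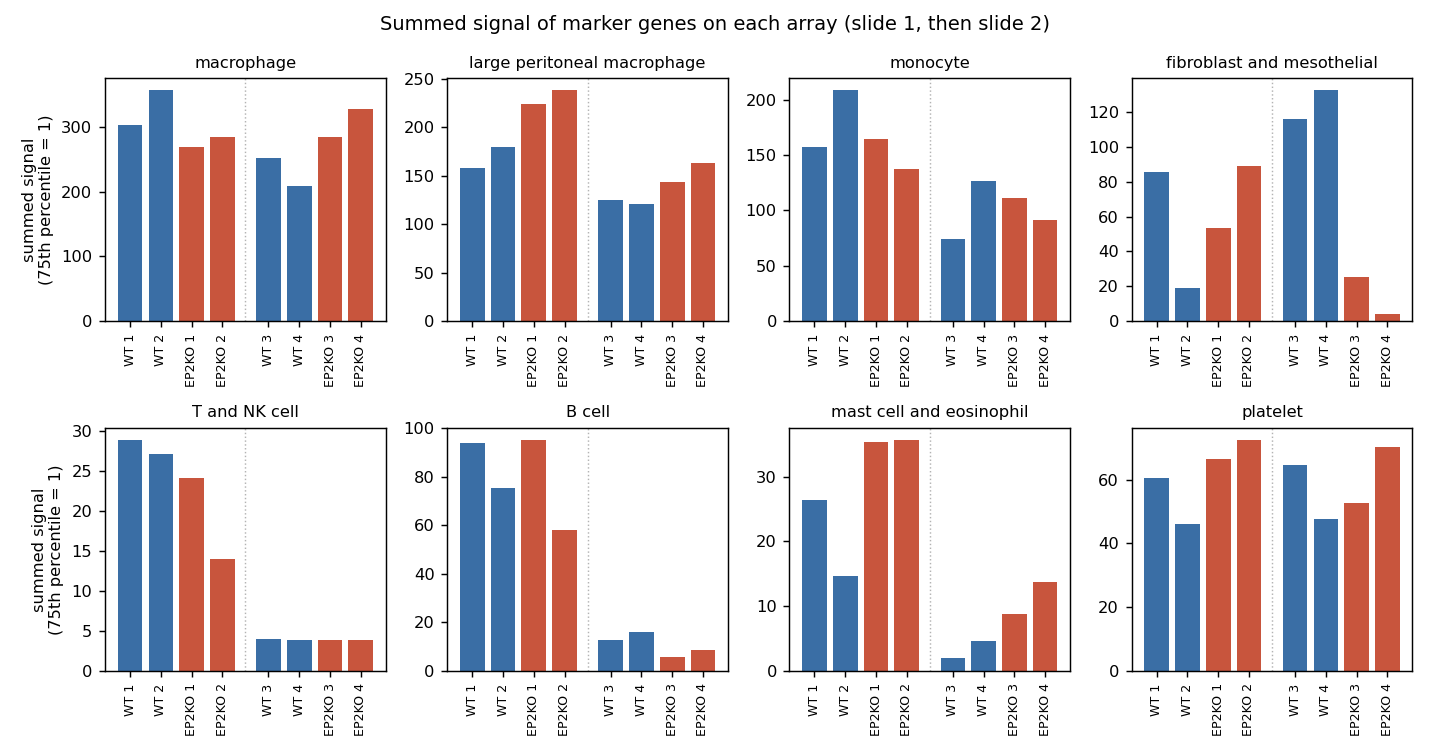
Summed signal of the genes of 8 marker lists (vertical axis, in multiples of each array's 75th percentile, starting at 0) on each array, slide 1 at the left of the dotted line and slide 2 at the right, WT in blue and EP2KO in red. The T and NK cell sum is 14.0 to 28.9 on slide 1 and 3.83 to 3.91 on slide 2, and the fibroblast and mesothelial sum runs from 4.03 on EP2KO 4 to 133 on WT 4.

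Of 48 further coagulation and fibrinolysis genes, 30 were tested and 18 were not well above background on all arrays of either genotype or had no probe. Between the genotypes 0 of the 30 passed with or without the slide as a block, and 19 were higher and 11 lower in EP2KO by value, with a median of 0.10. Between the slides 12 were higher and 5 lower on slide 2, 17 of 30 beside 43.2% of all features. Of the 7 tested clotting genes, Vwf, which encodes the von Willebrand factor that tethers platelets, was higher in EP2KO by 0.77 on slide 1 and 0.85 on slide 2 (slide-blocked SE 0.16, limma adjusted p = 0.207). Vwf also differed by 4.49 ± 0.16 between the slides, higher on slide 2 (adjusted p = 2.81e-05), the opposite direction to Serpinb2. Vkorc1, the enzyme that recycles vitamin K for clotting factor carboxylation, was at 0.19 ± 0.12 (adjusted p = 0.889).

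Among 6 tested anticoagulant genes, Entpd1, a cell surface enzyme that breaks down ATP and ADP, differed by 0.42 ± 0.14 and Proc, the gene of protein C, by -0.61 ± 0.24 (slide-blocked SE, limma adjusted p = 0.551 and 0.634). Of the 4 thrombin receptor genes only F2r was tested, with -0.99 ± 0.77 made of 0.75 on slide 1 and -2.74 on slide 2 (adjusted p = 0.965). Of the 16 tested fibrinolysis genes, Thbs1, whose product thrombospondin 1 is known to bind plasminogen, differed by 1.27 ± 0.13 (adjusted p = 0.0616), with 1.30 on slide 1 and 1.24 on slide 2. Serpinf2, the gene of the plasmin inhibitor alpha-2-antiplasmin, differed by 0.44 ± 0.21 (adjusted p = 0.733). Proc and Serpinf2 were dim, with mean log2 signals of -5.99 and -5.98 in WT and of -6.60 and -5.54 in EP2KO.

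The genes most like each member were sought for the 7 with a range over 2 log2 units, a range that 19.8% of all features had. Likeness was the root mean square difference over the 8 arrays between the log2 signals of 2 genes, each centred on its own mean, among 14473 named genes. Serpinb2 was closest to Nt5e, the ecto-5'-nucleotidase CD73 (0.29 log2 units, where the median over genes was 2.42), and to Ackr3, a scavenging chemokine receptor (0.57). Nt5e had 1.79, 0.77, 0.07 and 0.06 on WT 1 to 4, and it was 3.18, 3.35, 0.14 and 0.14 on EP2KO 1 to 4. Each gene named here was picked as closest on these same 8 arrays. A small difference and a shared order of slides and genotypes therefore follow from the choice. F5 was closest to Sec16b (0.20) and Nlrp4f (0.25), with a median of 1.24. F7 was closest to Ralgps1 (0.18) and the myosin gene Myo5a (0.21), with a median of 1.03. F10 was closest to the retinoic acid receptor gene Rarg (0.12) and the acute phase gene Saa1 (0.13), with a median of 0.75. F3 was closest to the heparan sulfate sulfotransferase gene Hs3st3a1 (0.23) and Serpinb1b (0.28), with a median of 0.97. Procr was closest to Cldn12 (0.21) and the scavenger receptor gene Colec12 (0.22), and Plau to Tmem171 (0.23) and Abca8b (0.31), with medians of 1.00 and 1.26. Nlrp4f, Hs3st3a1, Serpinb1b and Abca8b were dim, with highest signals of 0.052, 0.035, 0.071 and 0.084 over the 8 arrays.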

How the data were processed

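Macrophage RNA of 4 WT and 4 EP2KO samples was measured on 1-colour Agilent arrays, labelled with Cy3 from 0.5 µg of RNA, per the labels' protocols. The deposited values are linear spot intensity readings, extracted with Feature Extraction 10.7.1.1 per the file headers (9.1 per the submitters' processing notes), with background corrected and without scaling across arrays. The deposited table of the series held the same intensity values (largest log2 difference 0), so it was not log-scaled or centred, and had column medians of 65.7, 52.6, 96.9 and 95.6 for WT 1 to 4 and 69.0, 72.1, 61.3 and 69.9 for EP2KO 1 to 4.

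Control spots (1377 of 44397) were left out, outlier spots set missing, spots of a probe averaged, and log2 signals set against each array's 75th percentile (987 on WT 2 to 1508 on WT 3). Of 39429 probes, 25565 to 32156 per array were well above background. No array had a saturated spot (0). Probes were named through RefSeq transcripts of GRCm38.p6 (27508 named). Probes well above background on all arrays of a genotype were kept, and the brightest stood for its gene. The fits used limma 3.58.1 in R 4.3.3 with Benjamini-Hochberg adjustment over 20736 features, two-sided, at 0.05. They were tested on simulated data. The number of arrays limits the precision. Deviations of arrays of equal replicate number correlated across features at r = 0.74, 0.12, 0.55 and 0.43 for numbers 1 to 4, so only weakly for number 2. Each such pair lay on 1 slide, so these values do not tell a pairing by number from the slide. The number was also used as a block. The protein motif search that had been planned was not run, as no protein sequences were used here.

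The members, lists and tests were chosen with earlier results of these data known. The rule for named genes took all 10 members, Ptger2, of each further list the genes past the threshold and the 2 with the smallest unadjusted p in the slide-blocked fit, and the 2 genes most like each member with a range over 2. The within-array comparison of probe pairs and the fit of every kept probe were added after the values had been seen. Alternatives covered background correction, scaling, filter, probe choice, variance model, blocks, array weights and each array left out.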

Additional observations from a re-analysis of the deposited data

How the results depend on the processing

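For the 10 genes, 205 values of the genotype difference were recomputed, of which 180 kept their sign and their side of the threshold, 24 changed sign and 1 passed (Serpinb2 on slide 2 alone, 1.62). Sign changes were confined to genes near 0 or with opposite slides: F10 (-0.29 on slide 1 alone, -0.0877 by its other probe), F3 (-1.29 on slide 2 alone, -0.00154 with normexp, -0.0162 with array weights), F5 (-0.45 on slide 2), Plau (0.32 on slide 1), Plaur (-0.0299 with array weights), Procr (-0.37 on slide 2) and Thbd (-0.13 on slide 1). With each array left out the genotype difference ran from -0.0550 to 0.62 for F10, -0.45 to 0.57 for F3, -0.0689 to 0.96 for F5, -1.11 to 0.12 for Plau, -0.10 to 0.22 for Plaur and -0.22 to 0.81 for Procr. Of 145 slide differences 130 kept sign and side, 11 no longer passed and 3 newly passed. The sign changed for 1 (F10 by its other probe, 0.98). The mean over probes left F10 at -0.08. Of 145 interactions 17 changed sign: F7 (-0.22 with quantile scaling, -0.0307 by the mean over probes, -0.0648 by its other probe), F13a1 (-0.21) and Plaur (-0.20) with quantile scaling, and Serpinb2 (-0.12) with normexp. With each array left out the interaction ran from -0.23 to 0.47 for F13a1, -0.27 to 0.28 for F7, -0.34 to 0.39 for Plaur and -0.71 to 1.18 for Serpinb2.

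Features called between the genotypes were 2 without a block, 4 with the slide as a block or as a random block (correlation 0.579), 0 with the replicate block, 0 on slide 1 alone, 217 on slide 2 alone, and 0 to 4 with each array left out. The replicate block changed no call among the 10 genes. At an unadjusted p under 0.05, limma had 410 features without a block, 1130 with the replicate block and 2521 on slide 1 alone. Features called between the slides were 8966, 3534 with normexp, and 6539 to 9778 with each array left out. Interactions called were 3, 0 with normexp (2152 unadjusted), 5 with median scaling, 1 without a filter, 9 with an intensity trend, and 0 to 1441 with each array left out, the highest without WT 1 and 80 without WT 4. The cause was not tested. Over all features the median genotype difference was -0.03, -0.12 with normexp and 0.12 with median scaling. The median slide difference was 0.06 and 0.18 with normexp, and the median interaction 0.14, -0.10 with normexp and 0.45 with median scaling. Normexp started from median spot signals, as means were absent, and median scaling changed no sign among the 10 genes.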
